A study of Mus musculus with 24 samples.

Results

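The unfolded protein response genes measured here were 10: the endoplasmic reticulum (ER) chaperones and folding enzymes Hspa5, Hsp90b1, Pdia4 and Calr, the ER co-chaperone Dnajb9, the ER-associated degradation factor Herpud1, the transcription factors Xbp1, Atf4 and Ddit3, and the pseudokinase Trib3. Every probe set to which the array annotation gives 1 of these gene symbols, and no other, was taken, which gave 24 probe sets of the 45037 on the array that are no controls, and 10 of 18193 named genes. Of the 24, 21 reached the signal threshold at 1 or more time points and 3 never did (1 each of Pdia4, Xbp1 and Atf4). Each gene is described by whichever of its probe sets had the highest mean signal over all arrays, and those 10 probe sets were tested at every time point.

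RNA came from retinas of BALB/c mice, an albino strain, on 24 Affymetrix mouse genome arrays. Hypoxic mice breathed 6% oxygen for 6 h and were then taken at once (0 h) or kept in dark room air to reoxygenate for 16 h, 4 h or 2 h, while each time point had its own normoxic controls. A light exposure that the labels also mention is not given in the methods for these retinas. Each of the 8 groups had 3 arrays, and each array held a pool of 3 retinas from 3 different mice. The comparisons ask how the retina's gene expression differs after hypoxic preconditioning, a treatment that protects photoreceptors from later damage, and how long the difference lasts.

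Proteins that enter the ER are folded there with the help of chaperones, and unfolded protein that builds up is sensed by 3 membrane proteins, PERK (Eif2ak3), IRE1 (Ern1) and ATF6. PERK slows translation and, through ATF4, raises stress genes such as Ddit3 (CHOP) and Trib3, while spliced XBP1 and cleaved ATF6 raise chaperone and degradation genes through ER stress response elements in their promoters. ATF4 also responds to amino acid shortage and other stresses that leave the ER unaffected, through kinases other than PERK. Photoreceptors make large amounts of rhodopsin in the ER, which makes this pathway well known in retinal degeneration.

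The promoters show which of the 10 genes carry the elements that these factors bind. Windows from 250 bases before to 50 after the annotated gene start (RefSeq, GRCm38.p6) were found for all 10 genes and searched on both strands for the ER stress response element ERSE (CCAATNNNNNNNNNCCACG), its variant ERSE-II (ATTGG and CCACG with 1 base between), the XBP1 core TGACGTGG and the core TGATGNAA of the C/EBP-ATF response element (CARE), to which ATF4 and CHOP bind. An ERSE was found in Hspa5, Hsp90b1 and Calr, an ERSE-II in Herpud1, and a CARE core in Herpud1 and Trib3. ERSE occurred in 0.119% of all 32851 windows (39), ERSE-II in 0.0365% (12), the XBP1 core in 0.676% (222, with no member among them) and the CARE core in 3.97% (1304). No match was found in the windows of Pdia4, Dnajb9, Xbp1, Atf4 and Ddit3, which says only that these letters are not in these windows. The matched stretches are shown because the changes of the genes that hold them are set beside each other below. They run 5′ to 3′ on the gene's strand, and capitals mark the fixed letters of a match.

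Hspa5, chr2:34771840-34772089, plus strand, the ERSE starting 65 bases before the gene start: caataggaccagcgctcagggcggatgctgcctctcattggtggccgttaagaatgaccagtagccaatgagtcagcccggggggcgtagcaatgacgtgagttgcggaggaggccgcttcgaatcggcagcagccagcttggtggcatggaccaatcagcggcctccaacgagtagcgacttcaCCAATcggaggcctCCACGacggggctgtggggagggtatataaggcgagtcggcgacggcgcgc
Hsp90b1, chr10:86705445-86705694, minus strand, ERSEs starting 212 and 107 bases before the gene start, the nearer one in reverse orientation: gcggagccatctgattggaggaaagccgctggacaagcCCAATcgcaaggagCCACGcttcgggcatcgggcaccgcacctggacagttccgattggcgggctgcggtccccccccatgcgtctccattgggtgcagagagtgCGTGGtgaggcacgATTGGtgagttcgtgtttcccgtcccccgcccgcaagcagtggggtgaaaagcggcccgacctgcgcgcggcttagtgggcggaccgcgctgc
Calr, chr8:84846932-84847181, minus strand, an ERSE in reverse orientation starting 162 bases before the gene start: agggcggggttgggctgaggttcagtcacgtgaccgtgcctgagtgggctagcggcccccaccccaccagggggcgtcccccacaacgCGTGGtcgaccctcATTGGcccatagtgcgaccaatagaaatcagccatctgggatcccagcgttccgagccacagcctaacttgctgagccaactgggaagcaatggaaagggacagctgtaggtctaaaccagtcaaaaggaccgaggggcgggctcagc
Herpud1, chr8:94386179-94386428, plus strand, a CARE core in reverse orientation starting 112 bases and an ERSE-II starting 52 bases before the gene start: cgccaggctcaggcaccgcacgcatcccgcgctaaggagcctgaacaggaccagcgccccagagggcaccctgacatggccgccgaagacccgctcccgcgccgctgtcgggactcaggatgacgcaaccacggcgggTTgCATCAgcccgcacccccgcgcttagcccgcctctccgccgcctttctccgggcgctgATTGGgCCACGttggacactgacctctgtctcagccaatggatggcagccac
Trib3, chr2:152344028-152344057, minus strand, a CARE core in reverse orientation that starts at base 15 of the transcript: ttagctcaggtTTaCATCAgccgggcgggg

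Directly after hypoxia 5 of the 10 genes were higher in hypoxic retinas and 0 were lower. Of the 5, the transcription factors Atf4 and Ddit3 and the pseudokinase Trib3 were raised 1.504-fold, 1.78-fold and 1.59-fold. The chaperone Calr (1.29-fold) and the degradation factor Herpud1 (1.27-fold) rose by smaller steps. Hspa5, the chaperone BiP that is the usual marker of the response, did not pass the test, nor did Hsp90b1, Pdia4, Dnajb9 or Xbp1. At an unadjusted p under 0.05 the count by limma was 7, with Hspa5 higher and Xbp1 lower. Of the 18799 probe sets tested at 0 h, 7917 had such a p. Xbp1 was lower at 2 h and 4 h and Hspa5 at 2 h, and at 16 h no member passed. The calls of Hspa5 at 2 h and of Xbp1 at 4 h were each lost without any 1 of the 6 arrays of their time point. Among all probe sets tested at 0 h, 15.2% were higher and 17.2% were lower, so 5 of 10 genes higher and 0 lower stands beside a broad change in both directions. The median log2 change of the 10 genes was 0.28 at 0 h, beside -0.01 over all probe sets tested.

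**Figure D1:**
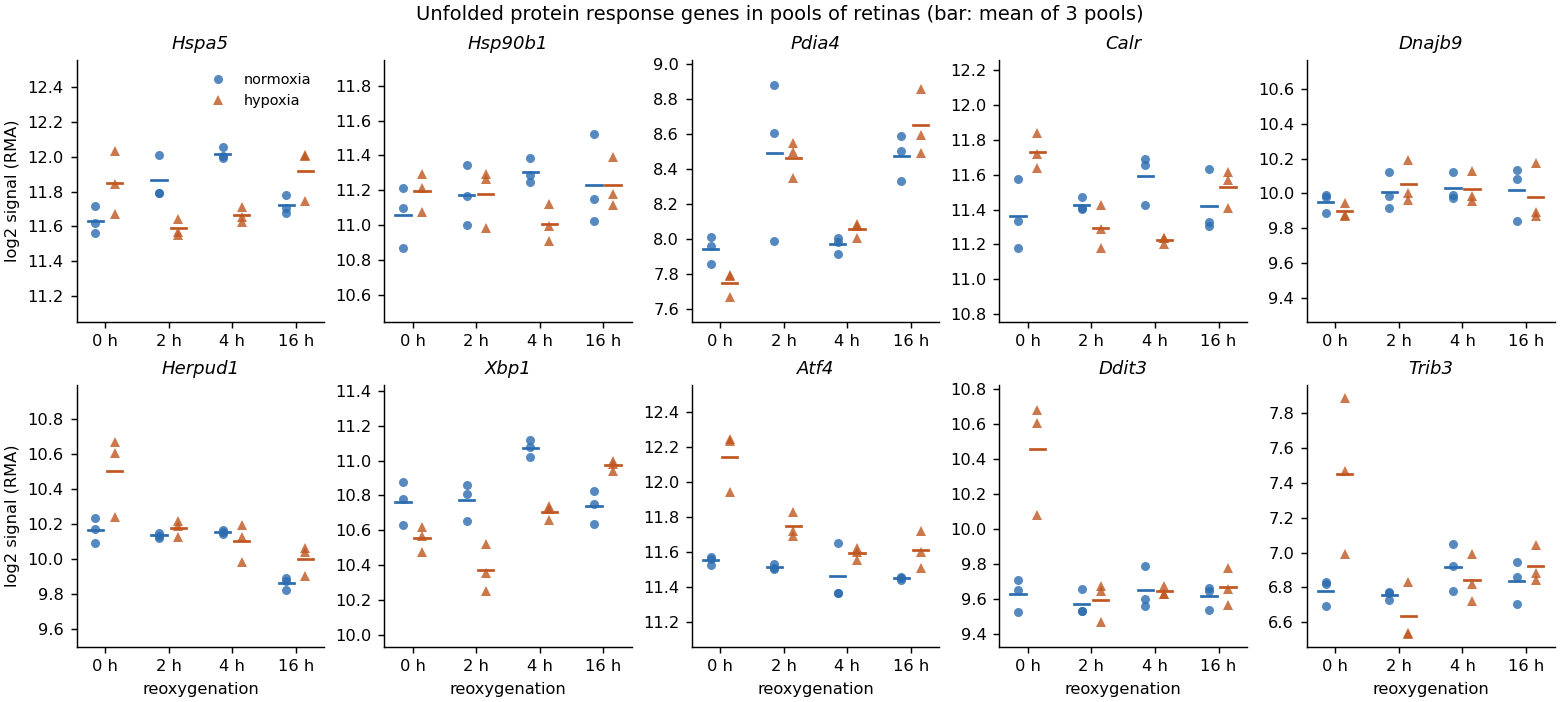
Log2 signal of each pool (RMA values, vertical axis, spanning 1.5 in every panel) for the 10 genes at 4 times of reoxygenation, with normoxic pools as circles, hypoxic pools as triangles and the mean of 3 pools as a bar. Hypoxic pools of Atf4, Ddit3 and Trib3 stand above the normoxic pools at 0 h, and those of Xbp1 stand below them at 2 h and 4 h.

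The rod markers used to check the tissue were all above the threshold in every group, with a summed log2 signal between 16.14 and 16.31. Markers of the retinal pigment epithelium (RPE), a layer that adheres to the retina, stood apart at 0 h: of 7, 5 were tested and all 5 were higher after hypoxia, with a summed log2 signal between 12.85 and 12.99 in hypoxic pools and between 9.32 and 9.995 in normoxic pools, where 6 of the 7 lay under the threshold, so 4 of the 5 were tested only through the hypoxic pools. At 2 h, 4 h and 16 h 0 of the 5 tested RPE markers passed by limma, with median log2 changes of 1.08, 0.84 and -0.55. Their summed log2 signal at 2 h lay between 11.14 and 12.40 in hypoxic pools and between 9.98 and 11.60 in normoxic pools. Of 10 lens markers 0 passed by limma at any time point, but at 0 h 9 had an unadjusted p under 0.05, with a median log2 change of 1.58. There normoxic replicate 2 held far less of them (summed log2 signal 12.34) than the other 2 normoxic pools (16.06 and 16.45). At 0 h 1 of 6 Mueller glia markers was higher (Vim), 1 of 6 rod markers lower (Rp1), 1 of 2 tested endothelial markers lower (Kdr, also lower at 2 h and 4 h) and 0 of 3 tested microglia markers passed. The part of RPE, lens or other cells in the changes was not tested at any time point. In whole retinas, more or fewer cells of a type and more or less RNA per cell cannot be told apart.

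Ddit3 encodes CHOP, a transcription factor of the C/EBP family that ATF4 induces and that promotes cell death when ER stress lasts. In hypoxic pools at 0 h its log2 signals were 10.68, 10.08 and 10.60 (replicates 1 to 3), and in normoxic pools 9.71, 9.65 and 9.52 (probe set 1417516_at). All hypoxic pools lay above all normoxic pools, with replicate 2 the lowest of the hypoxic pools. The log2 change was 0.83 ± 0.12 (SE, n = 3 against 3, limma adjusted p = 1.28e-05). At 2 h, 4 h and 16 h the hypoxic and normoxic pools overlapped, and the log2 changes were 0.02, -0.01 and 0.05. The change in effect from 0 h to 2 h was -0.81 ± 0.16 (SE, limma adjusted p = 0.00319). A further probe set of Ddit3, 1443897_at, was below the threshold at 0 h in both treatments and passed no test later. Its log2 changes were -0.25, -0.34, -0.06 and 0.35 in order of time, opposite in sign to the brighter probe set at 0 h and 2 h. With the mean of the 2 probe sets in place of the brighter one, the change at 0 h fell to 0.29 and its adjusted p rose to 0.0513.

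Trib3, a pseudokinase that CHOP and ATF4 induce and that dampens their activity, had log2 signals of 7.89, 6.99 and 7.47 in hypoxic pools at 0 h and of 6.83, 6.69 and 6.82 in normoxic pools (probe set 1426065_a_at). The groups did not overlap, although the hypoxic pools spread more widely (SD 0.45) than the normoxic ones (SD 0.08), with replicate 2 again the lowest. The log2 change was 0.67 ± 0.15 (SE, adjusted p = 0.00136). The other probe set of the gene, 1456225_x_at, gave 0.85 ± 0.17 (SE, adjusted p = 0.000481), but its normoxic mean of 6.36 lay under the signal threshold, so it was tested only through the hypoxic pools. Trib3 lay close to the signal threshold of 6.69 in normoxia, and with a threshold higher by 1 on the log2 scale it was no longer tested. From 2 h on the groups overlapped, and the change in effect from 0 h was -0.79 ± 0.21 (SE, adjusted p = 0.0202).

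Atf4, the transcription factor whose translation rises when PERK or related kinases act, had log2 signals of 12.25, 11.94 and 12.23 in hypoxic pools at 0 h and of 11.56, 11.57 and 11.53 in normoxic pools (probe set 1448135_at). The normoxic pools were within 0.05 of each other and every hypoxic pool stood above them. The log2 change was 0.59 ± 0.09 (SE, adjusted p = 3e-05). At 2 h the hypoxic pools (11.83, 11.69 and 11.72) still lay above the normoxic pools (11.53, 11.50 and 11.51), with a log2 change of 0.23 ± 0.09 that did not pass (adjusted p = 0.0763). The effects at 0 h and 2 h differed by -0.36 ± 0.13 (SE), which did not pass either (adjusted p = 0.0866). Its log2 change was 0.13 at 4 h and 0.16 at 16 h, neither past the test. The 1438992_x_at probe set of Atf4 gave 0.31 ± 0.17 at 0 h and did not pass (adjusted p = 0.172), so the 2 tested probe sets differ in their call. At 2 h, 4 h and 16 h it gave -0.14, -0.04 and -0.16, opposite in sign to the brighter probe set, and did not pass.

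Xbp1, the factor whose mRNA IRE1 splices, was lower after hypoxia at 2 h and 4 h. At 0 h its log2 signals were 10.62, 10.48 and 10.57 in hypoxic pools and 10.88, 10.63 and 10.78 in normoxic pools (probe set 1437223_s_at), without overlap, and the change of -0.21 ± 0.08 did not pass (adjusted p = 0.0608). At 2 h the hypoxic pools read 10.52, 10.25 and 10.36 and the normoxic pools 10.66, 10.81 and 10.86. The hypoxic pools were again all lower, with a log2 change of -0.40 ± 0.08 (SE, adjusted p = 0.00302), a level 0.759 times that of normoxia. At 4 h the hypoxic pools read 10.74, 10.66 and 10.72 and the normoxic pools 11.02, 11.12 and 11.08, with a log2 change of -0.36 ± 0.08 (SE, adjusted p = 0.0285). At 16 h the sign was opposite: hypoxic pools read 10.9997, 10.94 and 10.98 and normoxic pools 10.64, 10.75 and 10.82. Those groups did not overlap, but the log2 change of 0.24 ± 0.08 did not pass among all probe sets (adjusted p = 0.771). From 4 h to 16 h the effect shifted by 0.60 ± 0.12 (SE, adjusted p = 0.0429). The call of Xbp1 at 2 h was kept without any single array of that time point, whereas the call at 4 h was lost without any 1 of its 6 arrays.

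All 3 tested probe sets of Xbp1 were lower at 2 h, by -0.57 ± 0.10 (1420886_a_at, adjusted p = 0.000958) and -0.59 ± 0.12 (1420011_s_at, adjusted p = 0.00219) in the other 2. At 4 h, 2 of the 3 passed. These values do not separate spliced from unspliced Xbp1 mRNA. In order of level, the Xbp1 group means ran from hypoxia 2 h (10.38), hypoxia 0 h (10.55) and hypoxia 4 h (10.71) over normoxia 16 h (10.74), 0 h (10.76) and 2 h (10.77) to hypoxia 16 h (10.97) and normoxia 4 h (11.07). The 4 h controls were therefore the highest group. The pools of hypoxia 4 h and of normoxia 16 h, 0 h and 2 h overlapped, while hypoxia 16 h and normoxia 4 h stood above all other pools and apart from each other.

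**Figure D2:**
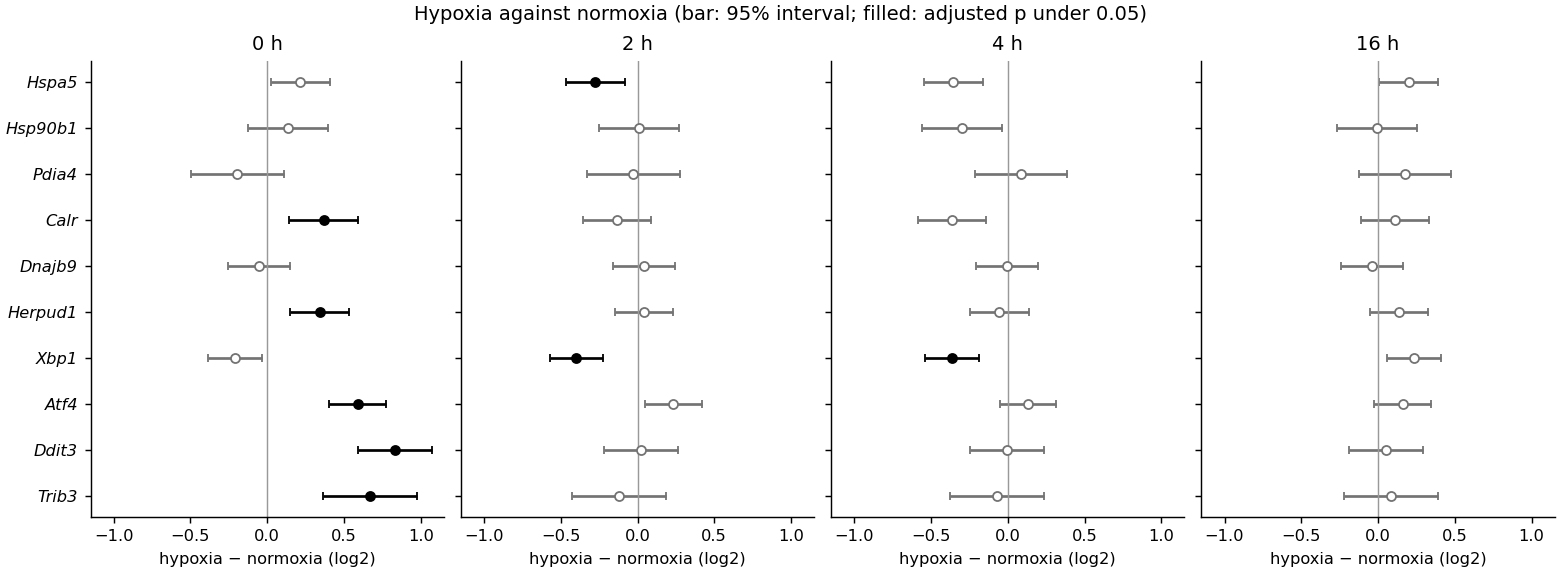
Hypoxia minus normoxia on the log2 scale for the 10 genes at each time of reoxygenation (points, 3 pools against 3; bars, 95% interval of the limma fit; filled where the adjusted p is under 0.05). Filled points lie to the right of 0 for Calr, Herpud1, Atf4, Ddit3 and Trib3 at 0 h, and to the left for Hspa5 and Xbp1 at 2 h and Xbp1 at 4 h.

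Among the chaperones, Hspa5 (BiP), the ER member of the Hsp70 family that also holds the 3 sensors inactive, had log2 signals of 12.03, 11.67 and 11.84 in hypoxic pools at 0 h and of 11.72, 11.56 and 11.62 in normoxic pools (probe set 1416064_a_at). The groups overlapped, and the log2 change of 0.22 ± 0.09 did not pass (adjusted p = 0.077). Its 95% interval ran from 0.03 to 0.41. At 2 h the hypoxic pools (11.65, 11.57 and 11.55) lay below the normoxic pools (11.79, 12.01 and 11.79), with a log2 change of -0.27 ± 0.09 that just passed (adjusted p = 0.0432). At 4 h they lay below them again (11.62, 11.71 and 11.65 against 11.99, 12.05 and 12.00), and the log2 change of -0.35 ± 0.09 did not pass (adjusted p = 0.0549). At 16 h the groups overlapped, with a log2 change of 0.20 ± 0.09 (adjusted p = 0.773).

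The turn of Hspa5 between 0 h and 2 h passed the test of the difference, which was -0.49 ± 0.13 (SE, adjusted p = 0.0206), and that between 4 h and 16 h, 0.55 ± 0.13, did not (adjusted p = 0.105). The normoxic means, which did not pass the test among the control groups (adjusted p = 0.0546), were 11.63, 11.86, 12.02 and 11.72 in order of time, while the hypoxic means were 11.85, 11.59, 11.66 and 11.92. The call at 2 h was lost when any 1 of the 6 arrays of that time point was left out. Of the other 2 probe sets of Hspa5, 1427464_s_at gave -0.21 at 2 h and -0.42 at 4 h, and 1447824_x_at gave -0.17 and -0.25, none past the test. At 0 h and 16 h 1427464_s_at gave 0.23 and 0.16, whereas 1447824_x_at gave -0.03 and -0.20, again none past the test. In order of level the 8 group means ran from 11.59 (hypoxia 2 h) to 12.02 (normoxia 4 h), and every pair of neighbours in that order overlapped.

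Calr encodes calreticulin, a calcium-binding lectin chaperone. Its log2 signals were 11.84, 11.64 and 11.72 in hypoxic pools at 0 h and 11.58, 11.33 and 11.18 in normoxic pools (probe set 1417606_a_at). The groups did not overlap and the log2 change was 0.37 ± 0.11 (SE, adjusted p = 0.0112). The other 2 probe sets rose by 0.36 and 0.40 and also passed. At 4 h all 3 were lower, by -0.36, -0.38 and -0.40, without overlap of the pools and without passing (adjusted p from 0.0533 to 0.0913). From 0 h to 2 h the effect on Calr shifted by -0.50 ± 0.15 (SE, adjusted p = 0.044). The rise of Calr at 0 h was lost without hypoxic replicate 1 (log2 change 0.31, adjusted p = 0.0572) or without normoxic replicate 3 (0.27, adjusted p = 0.0798).

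Hsp90b1, the Hsp90 of the ER (GRP94), had overlapping groups at 0 h by its brighter probe set 1415889_a_at, with hypoxic pools at 11.21, 11.29 and 11.08 and normoxic pools at 11.21, 10.87 and 11.10. Its log2 change there was 0.13 ± 0.13 (SE, adjusted p = 0.447). The other probe set, 1438040_a_at, read 11.23, 11.33 and 11.26 in hypoxic and 10.96, 10.91 and 10.96 in normoxic pools, and passed with 0.33 ± 0.11 (SE, adjusted p = 0.0283). The pair of probe sets thus disagreed on the call but not on the sign. At 4 h both were lower without overlap, by -0.30 and -0.19, and neither passed.

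Pdia4, a protein disulfide isomerase, had higher means at 2 h and 16 h than at 0 h and 4 h in both treatments. Its normoxic means were 7.94, 8.49, 7.97 and 8.47 in order of time and its hypoxic means 7.75, 8.47, 8.05 and 8.65. The hypoxia effect did not pass at any time point (log2 changes from -0.19 to 0.18). It was the 1 member of 10 that differed among the 4 normoxic groups (F test of limma, adjusted p = 0.0312), where 3.54% of all probe sets tested did. Xbp1 (adjusted p = 0.0509) and Hspa5 (0.0546) came next and did not pass. That call of Pdia4 was lost when normoxia 0 h replicate 2, normoxia 2 h replicate 1 or any of the 3 normoxic arrays of 4 h was left out. Without normoxia 2 h replicate 3 the count was 3, with Hspa5 and Xbp1.

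Of the other ER members, Herpud1, a membrane protein of the degradation machinery, had log2 signals of 10.67, 10.24 and 10.61 in hypoxic pools at 0 h and of 10.24, 10.17 and 10.09 in normoxic pools (probe set 1448185_at). Hypoxic replicate 2 was level with the highest normoxic pool and the other 2 were well above it. The log2 change was 0.34 ± 0.09 (SE, adjusted p = 0.00633), and the other probe set, 1435626_a_at, gave 0.32 ± 0.10 (adjusted p = 0.0191). Without hypoxic replicate 1 the change of Herpud1 was 0.26 and did not pass (adjusted p = 0.0512). From 2 h on it did not pass, with log2 changes of 0.04, -0.05 and 0.14. Dnajb9 (ERdj4), a J-domain partner of BiP and a target of spliced XBP1, had overlapping groups at all 4 time points and log2 changes from -0.05 to 0.04, the 95% interval at 0 h running from -0.26 to 0.15.

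At 0 h replicate 2 was the lowest hypoxic pool for 7 of the 10 members and for all 5 that passed. It was the highest for Hsp90b1 (11.29) and Dnajb9 (9.95). The share of all probe sets for which replicate 2 was the lowest was not counted. Without hypoxic replicate 1 only Atf4, Ddit3 and Trib3 still passed. Without hypoxic replicate 2, Hspa5 passed as well (log2 change 0.30, adjusted p = 0.0212), and without normoxic replicate 2, whose lens markers were low, Xbp1 passed as lower (log2 change -0.28, adjusted p = 0.0278).

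**Figure D3:**
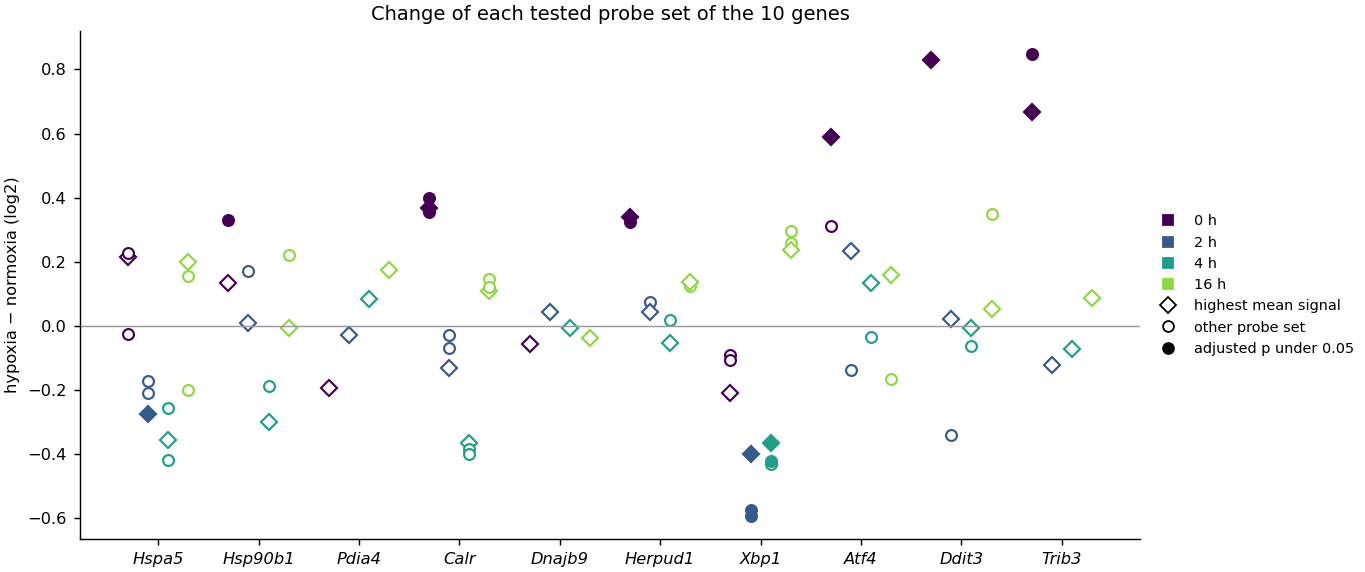
Log2 change, hypoxia minus normoxia, of every tested probe set of the 10 genes by time of reoxygenation (colours), with diamonds for the probe set of highest mean signal, circles for the others and filled symbols for an adjusted p under 0.05. Probe sets of Calr, Herpud1, Trib3 and Xbp1 lie close together, while those of Ddit3, Atf4 and Hsp90b1 at 0 h do not share a call or were not all tested.

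Counted over probe sets, 10 of the 20 member probe sets tested at 0 h were higher and 0 lower, 1 of the 10 (of Trib3) having been tested only through the hypoxic pools, and 6 were higher without hypoxia 0 h replicate 1. At 2 h 4 of 20 were lower and 0 higher, where 7.38% of all probe sets were lower and 9.19% higher. At 4 h 2 of 20 were lower, both of Xbp1 and at most 1 of them without any single array of that time point, where 0.551% were lower and 0.876% higher. At 16 h limma called 0 of the 20, and 0 of 18423 probe sets in all (0%), with 2 member genes and 1172 probe sets at an unadjusted p under 0.05. The methods' t-test also called 0 members there. Groups did not overlap for 7, 3, 5 and 3 of the 10 genes at the 4 time points in turn, where 45.4%, 34.8%, 27.3% and 11.1% of all probe sets tested did not overlap.

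Between 0 h and 2 h the effect differed for 4 of the 10 genes (Hspa5, Calr, Ddit3 and Trib3), each towards lower, where 8.21% of all probe sets differed. Between 2 h and 4 h it differed for 0 of 10 by limma (0.487% of all), and between 4 h and 16 h for Xbp1 alone (0.122% of all). Between 2 h and 4 h 0 of 10 also had an unadjusted p under 0.05, and the share of all probe sets with such a p was not counted. Without hypoxia 0 h replicate 1 or hypoxia 2 h replicate 3 the count between 0 h and 2 h fell to 1 (Ddit3), and without normoxia 0 h replicate 2 or normoxia 2 h replicate 2 to 2 (Ddit3 and Trib3). The difference of Xbp1 between 4 h and 16 h was kept without hypoxia 16 h replicate 1 or normoxia 16 h replicate 3 and lost without any other 1 of the 12 arrays.

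The wider PERK and ATF4 list held 20 genes with a probe set: phosphatase subunits that restore translation, further stress transcription factors, and enzymes and carriers of amino acid metabolism. Of the 19 tested at 0 h, 13 were higher and 1 lower (15.2% and 17.2% of all probe sets tested), with a median log2 change of 0.53. Cebpb and Eif4ebp1, among the 13, lay under the threshold in normoxia (means 6.30 and 6.28) and were tested only through the hypoxic pools, where they were high. Slc3a2, the heavy chain of amino acid exchangers, rose by 0.82 (adjusted p = 5.25e-07) and the alanyl-tRNA synthetase gene Aars by 0.75 (5.89e-06). Mthfd2, a mitochondrial folate enzyme, rose by 0.88 (adjusted p = 0.0025) and the stress factor Atf3 by 0.86 (0.00593), with overlapping pools in both, while Cth, cystathionine gamma-lyase, fell by 0.54 (0.000856). At 2 h 4 of 17 were higher (9.19% of all probe sets tested), of which Ppp1r15b had not passed at 0 h: Slc3a2 by 0.48 (adjusted p = 0.00122), Aars by 0.37 (0.0126), the phosphatase subunit Ppp1r15b by 0.35 (0.0144) and Vldlr, a lipoprotein receptor, by 0.25 (0.0407). At 4 h 0 of 18 and at 16 h 0 of 17 passed by limma, with 6 and 1 at an unadjusted p under 0.05. Such a p was held by 2877 of all 18498 probe sets tested at 4 h and by 1172 of 18423 at 16 h. Without hypoxia 2 h replicate 1 or 3 or normoxia 2 h replicate 3 the count at 2 h fell to 2.

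The 2 largest changes of that list at 0 h rested on 1 control array. Nupr1, a stress-induced nuclear protein, had log2 signals of 10.05, 6.74 and 10.13 in normoxic pools and of 11.01, 10.67 and 9.84 in hypoxic pools, and Phgdh, the enzyme that begins serine synthesis, had 7.99, 6.25 and 7.95 against 8.77, 8.50 and 8.18. In both, normoxic replicate 2 was far below every other pool. That pool also held far less of the lens markers (summed log2 signal 12.34 against 16.06 and 16.45). The part of lens cells in the changes of Nupr1 and Phgdh was not tested. Without it the log2 change of Nupr1 went from 1.54 to 0.42 (adjusted p = 0.436) and that of Phgdh from 1.09 to 0.51 (adjusted p = 0.145), and Psat1, of the same serine pathway, no longer passed (adjusted p = 0.109). The list then counted 10 higher and 1 lower. Atf4, Ddit3 and Trib3 passed with or without that array.

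The other chaperones and folding enzymes moved in both directions. Of 14 tested at 0 h 4 were higher and 2 lower, beside 15.2% and 17.2% of all probe sets tested, with a median log2 change of 0.03, and without hypoxia 0 h replicate 2 the count fell from 6 to 3. The largest change was that of Ero1a, the oxidase that drives disulfide formation and that is known as a hypoxia target, which rose by 1.32 ± 0.11 (SE, adjusted p = 2.05e-08) and was at -0.06 by 2 h. Dnajb11, a BiP partner, rose by 0.27 (adjusted p = 0.00909), Pdia3 and P4hb, disulfide isomerases, rose by 0.26 and 0.22 (0.0447 and 0.0404), and Creld2 and Manf, both known to be induced in ER stress, fell by 0.38 (0.00209) and 0.30 (0.0165). At 2 h Creld2, Manf and Pdia6, a further disulfide isomerase, were lower by -0.29, -0.28 and -0.31. Ero1b, the related oxidase, was higher by 0.20. That left 3 lower and 1 higher of 15, beside 7.38% lower and 9.19% higher of all probe sets tested at 2 h. At 4 h and 16 h 0 of 15 passed by limma, with 7 and 2 at an unadjusted p under 0.05. Over all probe sets tested, 2877 of 18498 and 1172 of 18423 had such a p at these times. At 2 h 0 of the list passed without hypoxia 2 h replicate 1 or 3 or normoxia 2 h replicate 2, and 2 passed without normoxia 2 h replicate 1 or 3.

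Of the 6 sensors and proteases, Eif2ak3 (PERK) was higher at 0 h by 0.27 (adjusted p = 0.0231) and at 2 h by 0.27 (0.0381), with overlapping pools at 2 h. Atf6b, a relative of ATF6, was lower by -0.32 (0.00942) and -0.36 (0.011), and Mbtps2, the site-2 protease that releases ATF6, was lower at 0 h by -0.52 (7e-04), with log2 changes of -0.05 at 2 h and -0.24 at 4 h that did not pass. These calls made 1 higher and 2 lower of 6 at 0 h, beside 15.2% and 17.2% of all probe sets tested. At 2 h 1 was higher and 1 lower, beside 9.19% and 7.38%. The count at 2 h fell from 2 to 1 without hypoxia 2 h replicate 1 or 3 or normoxia 2 h replicate 1 or 3. Ern1 (IRE1) and Atf6 did not pass at 0 h (log2 changes of -0.23 and -0.11). Of 13 tested genes of ER-associated degradation, 1 was higher and 1 lower at 0 h, beside 15.2% and 17.2% of all probe sets tested. Selenos, a selenoprotein of the ER membrane, was higher by 0.34 (0.00606). Edem3, a mannosidase that marks glycoproteins for removal, was lower by -0.36 (0.00151). Later 0 passed by limma, with 2, 1 and 0 at an unadjusted p under 0.05 at 2 h, 4 h and 16 h. Among all probe sets tested at those times, 5614 of 18587, 2877 of 18498 and 1172 of 18423 had such a p.

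**Figure D4:**
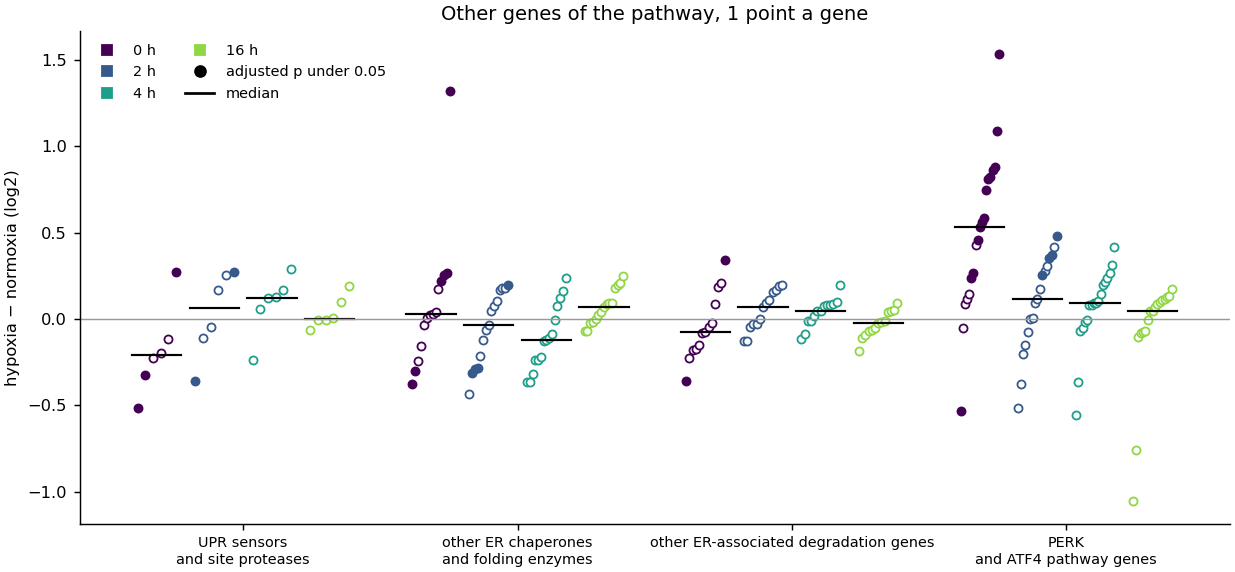
Log2 change, hypoxia minus normoxia, of each tested gene of 4 further lists of the pathway (1 point a gene) by time of reoxygenation (colours), filled where the adjusted p is under 0.05, with the median of the list as a bar. The PERK and ATF4 list at 0 h has its median at 0.53, and the other 3 lists at 0 h have theirs at -0.21, 0.03 and -0.08.

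Set against the promoter stretches above, the 4 members with an ERSE or ERSE-II had log2 changes at 0 h of 0.37 (Calr), 0.34 (Herpud1), 0.22 (Hspa5) and 0.13 (Hsp90b1, and 0.33 by its other probe set). Calr, Herpud1 and the other probe set of Hsp90b1 passed, and differences between these genes were not tested. Of the 2 with a CARE core, Herpud1 and Trib3, both passed, and Atf4 and Ddit3 passed without a match in their windows. Over all genes, 49 had an ERSE or ERSE-II in a window. Of the 25 among them that are no members and have a probe set, 17 were tested at 0 h, with a median log2 change of -0.03. In that group 3 were higher (Dnajb11, Alg12 by 0.38 and Rbm39 by 0.45) and 2 lower (Creld2, and Lgalsl by -0.35), beside 15.2% and 17.2% of all probe sets tested. At 2 h 17 were tested, of which 1 was higher (Ero1b) and 2 lower (Creld2 and Pdia6), beside 9.19% and 7.38% of all. Alg12, Rbm39 and Lgalsl are named because the counts are small, after their values were seen.

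By likeness over the 8 group means, the genes closest to Hspa5 among 10336 were Eno2 (r = 0.90), Tet1 (0.88), Plce1 (0.87), P4ha1 (0.87) and Smyd1 (0.84). Of these P4ha1, a collagen prolyl hydroxylase, shared the turn with calls on both sides: its log2 change was 0.46 at 0 h (adjusted p = 0.00152) and -0.50 at 2 h (0.00255). Those closest to Ddit3 were Apold1 (r = 0.99), Cabyr (0.99), Slc19a2 (0.99), Pdxp (0.99) and Ctbp2 (0.99), all higher at 0 h. The last 3 rose by 1.29, 0.58 and 0.31, while Apold1 and Cabyr had normoxic means of 5.81 and 5.37, under the threshold, and were tested only through their hypoxic means of 7.93 and 6.81. The group means share arrays and 1 group stands apart for Ddit3, so these values describe likeness over 8 points and carry no test.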

How the data were processed

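Retinal RNA was measured on 24 arrays of 8 groups, and 3 arrays per group limit the precision. The authors deposited log2 values made with RMA, named without a version in the submitters' notes, a method of background correction, quantile normalization and summary over probes. GCRMA values, from which the paper's own lists came, were not analysed here. The labels' treatment text also tells of a light exposure, which the methods do not give for the array retinas. Array medians lay between 5.79 and 5.84, and the highest correlation of 2 arrays was 0.997.

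The 64 control probe sets were left out. Symbols came from the platform annotation (34945 probe sets with 1 gene, 932 with several, 9160 with none here); 34741 matched a RefSeq gene identifier and 0 symbols changed. The filter of the methods was kept: at each time point, only probe sets in which either treatment's mean reached 6.69 were tested. This value is the minimum between the 2 peaks (3.80 and 7.90) of all values. A single model of the 8 group means was fitted with limma 3.58.1 in R 4.3.3 to all 24 arrays (eBayes), in place of the methods' t-test, and tested on simulated data. The Benjamini-Hochberg adjustment ran over all probe sets tested in a comparison, and an adjusted p under 0.05 was called a change. Differences between the effects of neighbouring time points were contrasts of that fit, and the normoxic groups were compared by its F test. RMA values understate fold changes of dim probe sets.

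The members and lists were chosen with earlier results of these data known. Named genes are all members, the up to 4 largest of the changes that passed per list and time point, and the 5 genes most like Hspa5 and Ddit3. Cth, Psat1, Pdia3, P4hb, Ern1, Atf6, Alg12, Rbm39 and Lgalsl were named after their values were seen. The lists were 4 of the pathway and 6 of cell type markers (rod, Mueller glia, RPE, lens, endothelial, microglia). Alternatives were testing without a filter, a threshold higher by 1, median centring, quantile normalization, array weights, a trended and robust prior, a replicate block, the 6 arrays of a time point or the 12 normoxic arrays alone, the t-test of the methods with the same adjustment, leaving out probe sets named _x_at or _s_at, the mean of a gene's probe sets, an adjusted p under 0.1, and leaving out each array. Leaving out normoxia 0 h replicate 2 and normoxia 16 h replicate 3 together, the 2 arrays farthest from their group's mean, was chosen after seeing the data.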

Additional observations from a re-analysis of the deposited data

Results flagged for a closer look

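The effect of hypoxia differed between time points for 5 results by limma's test of the difference. Between 0 h and 2 h the log2 effect moved by -0.49 for Hspa5, by -0.50 for Calr, by -0.81 for Ddit3 and by -0.79 for Trib3. Ddit3 and Trib3 went from a rise at 0 h to changes of 0.02 and -0.12 at 2 h, whereas Hspa5 and Calr went from 0.22 and 0.37 to -0.27 and -0.13. Between 4 h and 16 h the effect on Xbp1 moved by 0.60, from -0.36 to 0.24. No test for a single outlying pool was run, since each group had 3 pools.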

How the results depend on the processing

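Of the calls of single members, 0 changed sign under any alternative. The calls at 0 h kept their side of the threshold in 84 of 95 alternatives, those at 2 h in 21 of 36 and that at 4 h in 8 of 18. These alternatives include an adjusted p under 0.1, at which a call cannot be lost. For the calls at 0 h, leaving out _x_at and _s_at probe sets also kept the same probe set for each gene. The cause of the changes listed here was not tested, and some of the fits held fewer arrays. At 0 h, 5 member genes and 10 probe sets became 3 and 6 with the 6 arrays of the time point alone and 1 (Atf4) and 2 with the methods' t-test. With the mean of a gene's probe sets Ddit3 no longer passed at 0 h (limma adjusted p = 0.0513), while Hsp90b1 passed as higher (0.038). The list of other chaperones went from 6 to 3 with 6 arrays, the degradation list from 2 to 4 with a trended prior and 5 at an adjusted p under 0.1, and the PERK list from 14 to 9 with 6 arrays and 4 with the t-test. At 2 h, 2 member genes became 1 with no filter, median centring or the mean of a gene's probe sets, and 0 with 6 arrays or the t-test, while 4 probe sets became 2 with 6 arrays or without _x_at and _s_at probe sets and 0 with the t-test. With quantile normalization Hspa5 no longer passed at 2 h (limma adjusted p = 0.0652), while Atf4 passed as higher (0.0422). Atf4 also passed as higher at 2 h with a trended prior (limma adjusted p = 0.026) or at an adjusted p under 0.1. The sensors at 2 h counted 1 in place of 2 with no filter, 6 arrays or the mean of probe sets and 0 with the t-test, and the other chaperones 1 in place of 4 with no filter and 0 with 6 arrays or the t-test. The degradation genes at 2 h counted 1 in place of 0 with a trended prior, without _x_at and _s_at probe sets or at an adjusted p under 0.1, and 2 with the mean of probe sets, and the PERK list 1 in place of 4 with 6 arrays and 0 with the t-test. At 4 h, 1 member gene became 0 with no filter, 6 arrays or the t-test and 3 (Hspa5, Calr and Xbp1) with a trended prior, array weights, the mean of probe sets or an adjusted p under 0.1. The 2 probe sets of 4 h became 0 with no filter, 6 arrays or the t-test, 1 with centring or without _x_at and _s_at probe sets, 8 with a trended prior or an adjusted p under 0.1, and 6 with weights. The effect difference of 4 h to 16 h counted 0 members with no filter and 2 with a trended prior, and the normoxic groups 0 with no filter or with the 12 normoxic arrays alone. Leaving out 1 array, or both normoxia 0 h replicate 2 and normoxia 16 h replicate 3, gave 3 to 6 member genes and 6 to 11 probe sets at 0 h, 1 gene at 2 h, 0 genes and 0 to 1 probe sets at 4 h, 3 to 5 other chaperones at 0 h, and at 2 h 1 to 2 sensors, 0 to 3 other chaperones and 2 to 5 PERK genes. The effect differed from 0 h to 2 h for 1 to 6 members and from 4 h to 16 h for 0 to 1, and 0 to 3 differed among the normoxic groups. Without that pair of arrays (chosen once the values were seen), 6 members passed at 0 h, Xbp1 as lower being the addition. Replicate numbers were not treated as pairs, although the methods tell of controls handled in parallel. In 12 pairs the correlation of deviations ran from -0.227 to 0.237, with 2 above 0.1, both at 4 h (0.237 and 0.224). Of 24 arrays, 8 correlated best with their own number. Such correlations cannot show that there were no pairs. A replicate block left 5 member genes at 0 h, 1 at 2 h (Hspa5 had an adjusted p of 0.0512) and 0 at 4 h (Xbp1, 0.0988), 1 probe set at 4 h, 1 sensor and 2 other chaperones at 2 h, 0 effect differences of 4 h to 16 h, and 2 members that differed among the normoxic groups. Changes of sign were met in members that had not passed. With array weights the log2 change was -0.00950 for Ddit3 at 2 h, 0.016 for Dnajb9 at 4 h and 0.068 for Hsp90b1 at 16 h, and with the mean of probe sets -0.16 for Ddit3 at 2 h, 0.011 for Trib3 at 4 h, 0.11 for Hsp90b1 at 16 h and -0.067 for Atf4 at 16 h. Without single arrays, or that pair, the log2 change at 2 h ran from -0.073 to 0.11 for Hsp90b1, -0.28 to 0.17 for Pdia4, -0.026 to 0.099 for Dnajb9 and -0.018 to 0.084 for Ddit3. At 4 h it ran from -0.059 to 0.042 for Dnajb9, -0.10 to 0.0057 for Herpud1 and -0.051 to 0.063 for Ddit3, and at 16 h from -0.11 to 0.14 for Hsp90b1, -0.14 to 0.019 for Dnajb9 and -0.0037 to 0.10 for Ddit3. Trib3 and further dim probe sets lay near the threshold, where changes are the least well measured.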
